A study of Mus musculus with 12 samples.

Results

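The genes described here are 10 transcripts that are named together as the core of the TREM2 lipid-associated macrophage state: the receptor *Trem2*, its adaptor *Tyrobp*, the signalling enzymes *Syk* and *Plcg2*, and the state's marker genes *Gpnmb*, *Spp1*, *Cd9*, *Cd63*, *Lgals1* and *Lgals3*. They were chosen by name, and all 10 were present among the 13232 genes of the table. The cells were bone marrow-derived macrophages, grown from the marrow of wild-type C57B6/J mice on one of a pair of diets, normal (ND) or high in fat (HFD). Both groups were cultured with 20 ng/ml of M-CSF, the growth factor that turns marrow progenitors into macrophages, were moved to serum-free medium on day 4 and were held at 1% oxygen for 1 h on day 7. Each diet had 3 hypoxia libraries, and the 6 libraries that the labels describe at normal oxygen were not analysed here. The labels give neither the age of the mice, nor the length of the diet, nor whether libraries came from separate mice, so p-values measure the spread between these libraries, which may be technical. Fat and its resident macrophages were not sampled: the diet acted on the mouse, and the cells were then grown in a dish.

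TREM2 is a surface receptor of myeloid cells that binds lipids and lipoproteins. It has no signalling tail of its own and works through the adaptor DAP12, encoded by *Tyrobp*, whose phosphorylated motif recruits the kinase SYK, which in turn activates phospholipase C gamma 2. In fat tissue of obese animals, in atherosclerotic plaques and around lipid debris in the brain, macrophages with active TREM2 take up lipid and express *Gpnmb*, *Spp1*, *Cd9*, *Cd63* and galectins.

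All 10 genes lay well above counting noise. Estimated depth was 19046400 to 24491500 reads per library, so the least abundant value among them, *Plcg2*, still rested on about 2456 reads, a counting error of 2.02%. The labels name no molecular identifiers, so reads that share a molecule may be counted apart, and this error is that of counting alone. Every HFD library was deeper than every ND library before the authors' scaling. Values are the authors' normalized signal, gene counts divided by a size factor per library.

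Divided by the length of the principal transcript, *Gpnmb* was the most abundant of the 10, at 49004 to 58335 units of signal per kb over the 6 libraries. *Lgals3* came next at 40489 to 57481 per kb, and these neighbours overlapped. Among 12964 genes with a length they ranked 20 and 22 by mean signal per kb. *Tyrobp* (17088 to 19021 per kb) and its partner *Trem2* (13277 to 18108 per kb) overlapped as well. So did *Lgals1* (10352 to 12331 per kb) and *Spp1* (7809 to 11904 per kb). Below them, each gene was separated from the next: *Cd9* had 4043 to 5974 per kb, *Cd63* 2902 to 3194, *Syk* 2110 to 2455 and *Plcg2* 654 to 753. The place of *Cd63* in this order leaves out signal given to its pseudogene copy *Cd63-ps*: with that signal added over the same length, it would lie above *Cd9* and within the range of *Spp1*. The 10 genes together took 1.40% to 1.55% of all signal in the ND libraries and 1.51% to 1.64% in the HFD libraries, and *Gpnmb* alone took 0.813% to 0.950% over the 6 libraries.

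**Figure D1:**
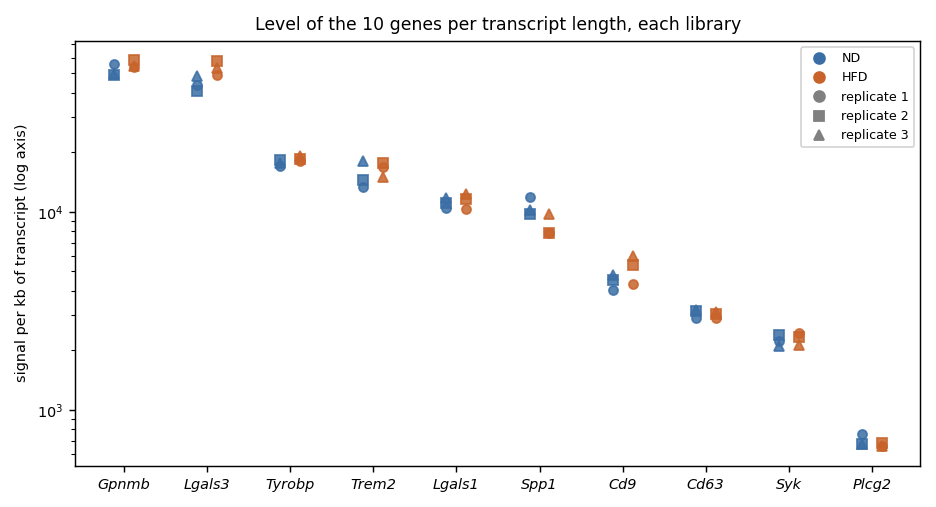
Normalized signal per kb of principal transcript (vertical log axis) for the 10 genes (horizontal axis, in order of mean level, Cd63 without its copy), 1 point per library, ND in blue and HFD in orange, replicate number by shape. The levels run from 58335 per kb for Gpnmb in its highest library down to 654 per kb for Plcg2 in its lowest, and the diets lie close together at each gene.

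Upstream of the transcription start, 8 of the 10 genes had a promoter window in RefSeq (GRCm38.p6). The 250 bases before the start are shown for *Trem2*, the receptor, *Gpnmb*, the most abundant member, and *Spp1* and *Lgals3*, the members with the smallest p in either direction. Capitals mark matches, on either strand, to TGANTCA (the AP-1 letters), CACGTG or CATGTG (letters bound by MiT/TFE factors) and GAGGAAGT (the PU.1 letters).
Trem2, chr17:48346151-48346400, plus strand: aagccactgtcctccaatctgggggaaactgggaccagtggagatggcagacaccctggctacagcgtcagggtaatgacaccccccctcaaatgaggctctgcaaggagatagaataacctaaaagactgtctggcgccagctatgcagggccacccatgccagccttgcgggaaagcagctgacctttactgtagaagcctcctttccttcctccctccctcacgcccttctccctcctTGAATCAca
Gpnmb, chr6:49036268-49036517, plus strand: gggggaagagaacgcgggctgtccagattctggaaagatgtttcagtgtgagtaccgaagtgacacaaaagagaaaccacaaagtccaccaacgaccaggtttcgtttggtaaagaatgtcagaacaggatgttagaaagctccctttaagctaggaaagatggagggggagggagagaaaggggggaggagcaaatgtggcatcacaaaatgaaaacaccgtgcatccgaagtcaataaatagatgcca
Spp1, chr5:104434861-104435110, plus strand: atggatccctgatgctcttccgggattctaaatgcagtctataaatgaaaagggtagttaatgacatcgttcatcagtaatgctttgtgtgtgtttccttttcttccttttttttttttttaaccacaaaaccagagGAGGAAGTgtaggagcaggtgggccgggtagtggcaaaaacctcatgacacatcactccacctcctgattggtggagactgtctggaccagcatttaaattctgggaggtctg
Lgals3, chr14:47373610-47373859, plus strand: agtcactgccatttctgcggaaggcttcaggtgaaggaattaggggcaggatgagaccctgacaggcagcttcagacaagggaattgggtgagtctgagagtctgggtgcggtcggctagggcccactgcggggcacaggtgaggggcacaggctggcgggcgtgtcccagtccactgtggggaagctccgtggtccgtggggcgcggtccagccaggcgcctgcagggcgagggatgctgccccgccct
The Trem2 window held TGAATCA, its first base 9 bases before the start, and TGANTCA occurs in 6.75% of 32851 windows of this length. RefSeq gives *Spp1* 2 windows: the one shown held GAGGAAGT, 113 bases before its start, which 2.44% of windows hold, and the other, chr5:104435942-104436191, held no match. No match was found in the windows of *Gpnmb* and *Lgals3*. Of those not shown, *Plcg2* held CACGTG (6.02% of windows) and *Cd9* the reverse complement of CATGTG (12.3% of windows), while the windows of *Cd63* and *Syk* held no match. These are letter matches, and binding was not measured.

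In the comparison of diets, which asks whether the diet of the mouse changed these genes in its cultured macrophages at low oxygen, none of the 10 passed an adjusted p of 0.05 (limma, Benjamini-Hochberg over 13232 genes). Over all genes 0 passed as well (0%). At an unadjusted p under 0.05 there were 2 of 10 members, *Lgals3* higher and *Spp1* lower in HFD, against 10.6% of all genes. That count was 0 without ND replicate 1 or HFD replicate 2, 1 when ND replicate 2 was dropped and 4 when ND replicate 3 was. Over all genes the count moved as well, from 1401 in the main fit to 700, 726, 1060 and 2309 in those fits, in that order. Complete separation of the diets was seen for 1 of 10, *Lgals3*, against 14.5% of all genes. By direction, 7 members were higher and 3 lower in HFD, and their median log2 difference was 0.055, beside -0.0034 over all genes. Dropping ND replicate 1 gave a median of 0.030 for the members, dropping HFD replicate 1 gave 0.094, and quantile normalization gave 0.0084. The median size of the difference, without its sign, was 0.090 for the members and 0.092 for all genes, so differences in the set were of about the same size as elsewhere. In bulk RNA, fewer cells expressing a gene and less RNA per cell cannot be told apart.

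**Figure D2:**
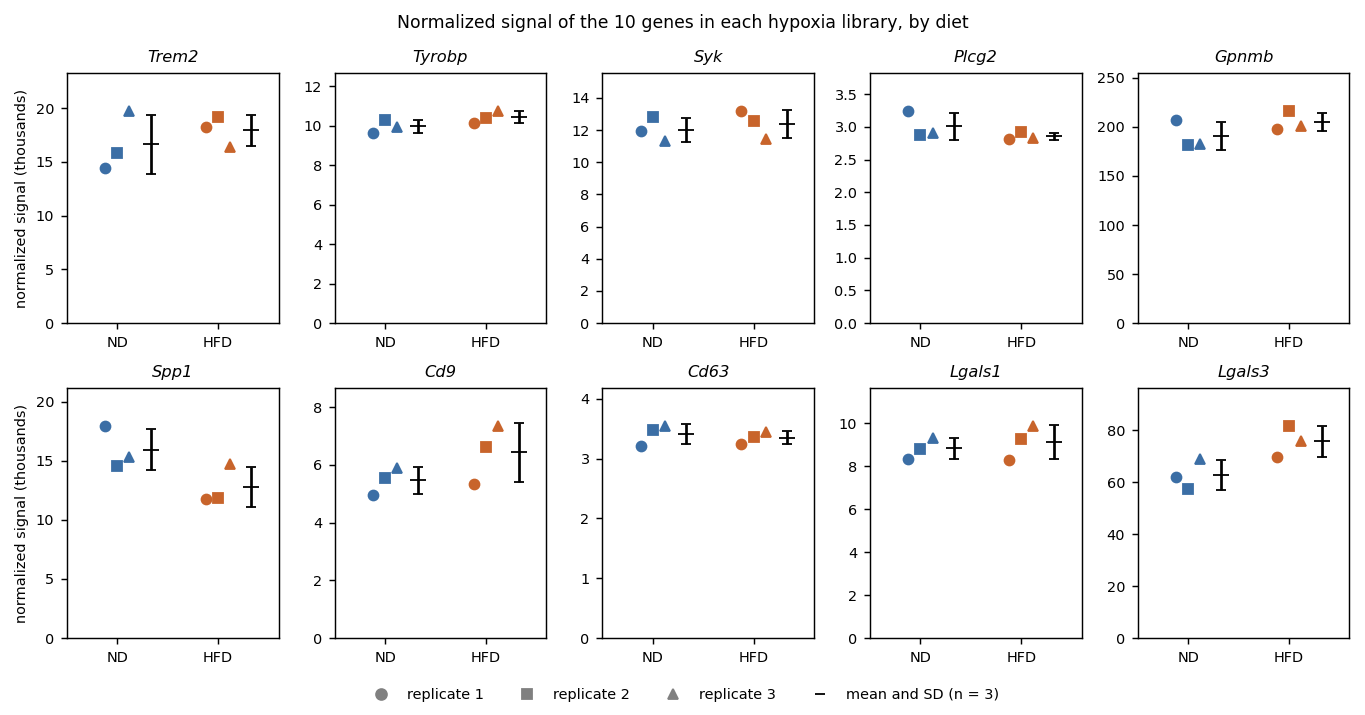
Normalized signal (vertical axes, from 0, in units of 1000) of each of the 10 genes in the 3 ND (blue) and 3 HFD (orange) hypoxia libraries, with shape giving the replicate number and the black bar the mean and SD (n = 3). Only for Lgals3 does every HFD library lie above every ND library, and Spp1 is the gene with the lowest HFD mean relative to ND.

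*Trem2* (chr17:48346401-48354147 in GRCm38) differed more between libraries of 1 diet than between diets. In order of replicate number, here and below, the ND libraries gave 14445, 15783 and 19702 and the HFD libraries 18224, 19197 and 16357. ND replicate 3 held the highest value of all, above every HFD library, and the diets overlapped. The ND mean was 16643 ± 2732 and the HFD mean 17926 ± 1443 (SD, n = 3 for both), a log2 difference of 0.12 (SE 0.11, 95% interval -0.14 to 0.37, limma adjusted p 0.766). That value rested on single libraries: leaving out ND replicate 3 raised it to 0.24, and leaving out ND replicate 1 lowered it to 0.021. Among HFD libraries the fit gave 0.18 when replicate 3 was dropped and 0.065 when replicate 2 was. Array weights gave 0.27 (limma adjusted p 0.0752, up to 0.993 under other alternatives). It passed the threshold in none of these fits.

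*Tyrobp* (chr7:30413760-30417585), which passes on signals from TREM2 and several other receptors, was the steadiest of the 10. It gave 9638, 10314 and 9932 in ND and 10126, 10406 and 10728 in HFD, the diets overlapping by a single ND library. The log2 difference was 0.065 (SE 0.061, limma adjusted p 0.752), and 0.042 when ND replicate 1 was dropped and 0.010 after quantile normalization. Its SD of log2 values within a diet, 0.046, was lower than that of all but 5.74% of genes, whereas that of *Trem2*, 0.18, was higher than in 72.0% of genes. The ratio of *Trem2* to *Tyrobp* signal therefore followed *Trem2*: it was 1.5, 1.53 and 1.98 in ND and 1.80, 1.84 and 1.52 in HFD, again with ND replicate 3 highest.

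Downstream of the adaptor, *Syk* (chr13:52583173-52648792), the kinase that docks on DAP12, ranged from 11316 to 12804 in ND and from 11446 to 13164 in HFD. Its log2 difference was 0.045 (95% interval -0.13 to 0.22, limma adjusted p 0.877) and changed sign after quantile normalization (-0.014). Leaving out 1 library gave 0.00053 (HFD replicate 1), 0.0025 (ND replicate 3), 0.092 (ND replicate 2) or 0.10 (HFD replicate 3). *Plcg2* (chr8:117498291-117635142), the phospholipase that SYK activates, ranged from 2882 to 3238 in ND and from 2812 to 2921 in HFD, with a log2 difference of -0.074 (95% interval -0.22 to 0.072, limma adjusted p 0.735) that was -0.019 without ND replicate 1. The groups overlapped for both. Neither interval reached beyond 0.22 on the log2 scale in either direction. These intervals cover only the spread between these libraries, which may be technical, so they do not bound an effect across mice.

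The wider TREM2 pathway was described by 25 genes for signalling and receptor shedding, all of them in the table. None passed the adjusted threshold, 17 were higher and 8 lower in HFD, and the median log2 difference was 0.013. The 17 became 13 after quantile normalization, after scaling to the column total (median 0.00037) and without HFD replicate 1 or 2, and leaving out 1 library moved the median from 0.0027 (HFD replicate 2) to 0.047 (HFD replicate 3). At an unadjusted p under 0.05 there was 1 gene higher and 3 lower, beside 5.40% and 5.18% of all genes, and 0 higher and 1 lower without ND replicate 1 or HFD replicate 2. Over all genes, in either direction, those fits gave 700 and 726 at that p, beside 1401 in the main fit. *Cd33*, an inhibitory receptor that opposes this pathway, was the lowest in HFD relative to ND. Its signal was 996, 838 and 463 in ND and 413, 279 and 327 in HFD, with every HFD library below every ND library (log2 difference -1.12, SE 0.25, limma adjusted p 0.217). It passed with array weights, which weight each library by how little it deviates (-1.49, limma adjusted p 0.00461), and when ND replicate 3 was dropped (-1.44, limma adjusted p 0.0105). Under other alternatives this p reached 0.860. *Pik3ap1*, which links receptors to PI3 kinase, was higher in every HFD library than in any ND library (0.20, limma adjusted p 0.370). *Plcb2*, another phospholipase C, was lower with overlap (-0.31, limma adjusted p 0.427, and -0.19 when ND replicate 1 was dropped). Array weights put *Pik3ap1* at 0.21 and *Plcb2* at -0.49, where both passed (limma adjusted p 0.0391 and 0.0222, up to 0.933 and 0.956 under other alternatives). *Adam10* and *Adam17*, the proteases that shed TREM2 from the surface, had log2 differences of 0.096 and 0.063 (limma adjusted p 0.638 and 0.755), with 0.057 for *Adam10* when ND replicate 3 was dropped, and both were named for that role.

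Of 5 genes for TREM2 ligands and lipid cargo, 3 were in the table, 2 of them higher and 1 lower in HFD. *Apoe*, a lipoprotein component that TREM2 binds, ranged from 31501 to 51560 in ND and from 38491 to 59197 in HFD, so the groups overlapped widely (log2 difference 0.24, SE 0.19, limma adjusted p 0.706). Single libraries moved this value of *Apoe*: it was 0.051 without ND replicate 1, 0.41 without ND replicate 2, 0.087 when HFD replicate 2 was dropped and 0.40 when HFD replicate 3 was, and array weights gave 0.53. *Cd14*, a lipid-binding co-receptor, was 4006, 4019 and 3969 in ND and 3678, 2981 and 3188 in HFD. All 3 HFD values lay below all 3 ND values (-0.29, SE 0.078, limma adjusted p 0.281), and *Cd14* passed with array weights (-0.36, limma adjusted p 0.0153, up to 0.882 under other alternatives). *Anxa5*, which binds phosphatidylserine, differed by 0.050 (limma adjusted p 0.848), by 0.012 without ND replicate 1 and by 0.10 without ND replicate 3, and was at -0.0042 after quantile normalization.

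*Gpnmb* (chr6:49036546-49070929), a transmembrane glycoprotein of lysosomes that marks lipid-laden macrophages, was the 10th most abundant gene of the table by signal. It gave 207261, 181365 and 182923 in ND and 198095, 215897 and 200964 in HFD. ND replicate 1 lay inside the HFD range, and the other ND libraries lay below it. The log2 difference was 0.11 (SE 0.11, 95% interval -0.14 to 0.35, limma adjusted p 0.778), and it was 0.17 when ND replicate 1 was dropped. Dropping HFD replicate 2 gave 0.069 and dropping ND replicate 2 gave 0.073. The MiT/TFE factors, of which MITF is known to activate *Gpnmb*, were a list of 4 genes, 3 higher and 1 lower in HFD. *Mitf* itself was 4477, 4693 and 5204 in ND and 5831, 6415 and 6577 in HFD, without overlap (log2 difference 0.39, SE 0.076, limma adjusted p 0.181). It passed when libraries were weighted (0.45, limma adjusted p 0.00506) and when ND replicate 3 was dropped (0.45, limma adjusted p 0.0196), and the adjusted p ran up to 0.860 over the alternatives. *Tfeb* (0.14, limma adjusted p 0.684) and *Tfec* (-0.073, limma adjusted p 0.816) overlapped between diets. Leaving out 1 library moved *Tfeb* from 0.060 (ND replicate 2) to 0.24 (HFD replicate 3) and *Tfec* from -0.13 (ND replicate 3) to -0.024 (HFD replicate 3).

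*Spp1* (chr5:104435118-104441050), which encodes the secreted matrix protein osteopontin, was the member furthest lower in HFD, against the direction of most of the set. Its signal was 17939, 14609 and 15317 in ND and 11769, 11849 and 14709 in HFD. HFD replicates 1 and 2 lay below all ND libraries, and HFD replicate 3 lay just above ND replicate 2. The means were 15955 ± 1754 and 12776 ± 1675 (SD, n = 3 each), a ratio of HFD to ND of 0.801 and a log2 difference of -0.32 (SE 0.11, 95% interval -0.56 to -0.085, unadjusted p 0.0130 and limma adjusted p 0.340). It ran from -0.43 to -0.24 when 1 library was left out, and was -0.38 after quantile normalization. It passed the threshold with array weights alone (-0.45, limma adjusted p 0.0160, in a range up to 0.934 over the alternatives). Over 309 exonic bases *Spp1* overlaps *Gm42793* on the same strand, a model whose mean signal was 78.8, so reads given to it are few beside those of *Spp1*.

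Receptors for osteopontin, CD44 and several integrins, were a list of 7 genes, all present, with 4 higher and 3 lower in HFD (median log2 difference 0.038, none past the adjusted threshold). That median turned sign without single libraries, to -0.017 (HFD replicate 2), -0.0054 (HFD replicate 3) and -0.0087 (ND replicate 1). *Itgb3*, the beta chain of its best known integrin receptor, was 548 to 598 in ND and 468 to 507 in HFD without overlap (-0.25, SE 0.076, limma adjusted p 0.318). *Itga4* was -0.23 with overlap (limma adjusted p 0.509) and passed when libraries were weighted (-0.34, limma adjusted p 0.0278) and when ND replicate 3 was dropped (-0.38, limma adjusted p 0.0208), with an adjusted p of up to 0.956 elsewhere, and was -0.15 when ND replicate 2 was dropped. *Cd44* differed by 0.070 (limma adjusted p 0.752), by 0.036 when HFD replicate 3 was dropped and by 0.021 after quantile normalization.

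The galectins, sugar-binding proteins found in and outside the cell, had differences of both signs. *Lgals3* (chr14:47367751-47386160), which gathers at damaged lysosomes and is known as a TREM2 ligand, gave 62179, 57454 and 69030 in ND and 69711, 81565 and 75855 in HFD. Every HFD library lay above every ND library, although ND replicate 3 and HFD replicate 1 were nearly level. The means were 62887 ± 5820 and 75710 ± 5929 (SD, n = 3 each), a ratio of HFD to ND of 1.20 and a log2 difference of 0.27 (SE 0.10, 95% interval 0.044 to 0.49, unadjusted p 0.0238 and limma adjusted p 0.392). With array weights it passed (0.35, limma adjusted p 0.0304, in a range up to 0.934 over the alternatives). Quantile normalization lowered it to 0.10. *Lgals1* (chr15:78926725-78930465) ranged from 8352 to 9339 in ND and from 8282 to 9865 in HFD, with a log2 difference of 0.045 (limma adjusted p 0.881) that was -0.012 without HFD replicate 3, 0.0051 without ND replicate 1, 0.0066 after quantile normalization and 0.11 without HFD replicate 1. *Lgals9*, another galectin and no member of the set, was lower in all 3 HFD libraries (905, 830 and 855) than in the ND libraries (1126, 1026 and 1044), at -0.30 (SE 0.070, limma adjusted p 0.229), and it passed with array weights (-0.36, limma adjusted p 0.00992, up to 0.879 over the alternatives).

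The tetraspanins are small membrane organisers, CD9 of the cell surface and CD63 of late endosomes and lysosomes. *Cd9* (chr6:125460266-125494791) gave 4965, 5537 and 5891 in ND and 5336, 6614 and 7336 in HFD. HFD replicates 2 and 3 lay above all ND libraries and HFD replicate 1 below ND replicates 2 and 3. The log2 difference was 0.23 (SE 0.11, 95% interval -0.026 to 0.48, limma adjusted p 0.534). It was 0.35 without HFD replicate 1 and 0.12 without HFD replicate 3. Of the 1154 windows of 75 bases in its principal transcript 12.5% lie, on the opposite strand, in *Gm26728*. The library kit marks strand, and whether the authors' counting used it is not given in the sources used here.

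*Cd63* (chr10:128900989-128912822) gave 3218, 3482 and 3542 in ND and 3240, 3363 and 3451 in HFD, with a log2 difference of -0.026 (limma adjusted p 0.914). This value is uncertain, because 25.9% of the 75-base windows of its principal transcript also occur in the pseudogene *Cd63-ps*, and the table gives that copy more signal than the gene: 6676, 6985 and 7422 in ND and 6795, 7300 and 7544 in HFD. The copy thus held 67.3% ± 0.503 of their summed signal in ND and 68.3% ± 0.479 in HFD (SD, n = 3 each). The sum of gene and copy was 9894 to 10964 in ND and 10035 to 10996 in HFD, and with the sum in place of *Cd63* the log2 difference was 0.017 (limma adjusted p 0.953), of the opposite sign. Without ND replicate 3 (0.0012) and with array weights (0.0087) the sign of *Cd63* turned as well.

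**Figure D3:**
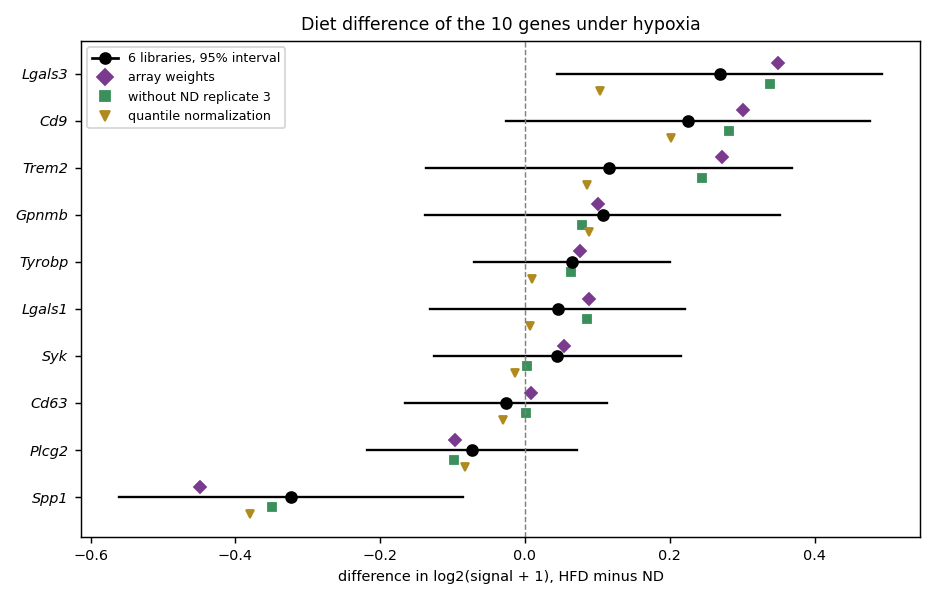
Difference in log2(signal + 1), HFD minus ND (horizontal axis), for each of the 10 genes, with black points and bars for the limma estimate from 6 libraries and its 95% interval, and coloured points for array weights, the fit without ND replicate 3 and quantile normalization. The intervals of Lgals3 (0.044 to 0.49) and Spp1 (-0.56 to -0.085) leave out 0 before adjustment, and quantile normalization moves Lgals3 from 0.27 to 0.10.

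Relatives of the members numbered 19, of which 13 were in the table, 7 higher and 6 lower in HFD. Their median log2 difference of 0.021 was 0.044 without ND replicate 2 and 0.0031 with array weights, and turned sign without ND replicate 3 (-0.016) and after quantile normalization (-0.017). None passed the adjusted threshold. At an unadjusted p under 0.05 there were 3 higher and 3 lower, where the shares of all genes were 5.40% and 5.18%. *Treml4*, a receptor of the TREM family, was at 20.5 or less in ND and 29.4 or more in HFD without overlap (1.17, SE 0.31, limma adjusted p 0.278). The tetraspanin *Tspan3* was 917 to 1020 in ND and 1115 to 1162 in HFD, also without overlap (0.22, limma adjusted p 0.318). Both passed with array weights, *Treml4* at a limma adjusted p of 0.0226 and *Tspan3* at 0.0234, and over the alternatives these ran up to 0.879 and 0.928. *Treml1*, of the TREM family and named after its values were seen, went the other way without overlap (-0.56, limma adjusted p 0.437). It too passed with array weights (-0.78, limma adjusted p 0.0412). The signal of *Treml4* and *Treml1* was low, with means under 100. *Trem1* and *Trem3* were among the 6 relatives not listed in the table.

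Beyond the 10 genes, 26 other genes of the lipid-associated state were listed with earlier results of these data known, and 23 were in the table. None passed the adjusted threshold. Of the 23, 18 were higher and 5 lower in HFD, with a median log2 difference of 0.17 beside 0.055 for the 10 members and -0.0034 for all genes. That median of 0.17 was 0.12 after quantile normalization and without ND replicate 1, and 0.22 when HFD replicate 1 was dropped. At an unadjusted p under 0.05 there were 10 higher and 1 lower, beside 5.40% and 5.18% of all genes. Complete separation of the diets was seen for 8 higher and 2 lower, beside 7.44% and 7.07% of all genes. The count of 10 was 6 without HFD replicate 2 and stayed between 7 and 11 when another library was left out. After quantile normalization and without the trend it was 7. Over all genes, in either direction, the main fit gave 1401 at that p, and 726 without HFD replicate 2. The other fits without 1 library gave 700 to 2309, quantile normalization 1384 and the fit without the trend 1257. With array weights 7 passed the adjusted threshold as higher and 1 as lower, where 8.56% of all genes passed, and without ND replicate 3 there were 6, all higher, where 1.76% of all genes passed. By those same fits 2 and 0 of the 10 members passed. Because the list was chosen with earlier results known, its counts beside those of all genes are a description and no test of the state.

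Among those genes, *Mmp12*, the macrophage elastase, showed the greatest distance. It was 7264, 8895 and 18134 in ND and 21370, 36455 and 36815 in HFD, so that ND replicate 3 lay near the HFD range without entering it (log2 difference 1.54, SE 0.31, limma adjusted p 0.184). *Ctsl*, a lysosomal protease, was 16116, 17848 and 21381 in ND and 25339, 30255 and 29517 in HFD (0.63, SE 0.11, limma adjusted p 0.145). *Atp6v0d2*, a subunit of the lysosomal proton pump, was 7578, 9128 and 8486 in ND and 10912, 12969 and 12461 in HFD (0.53, SE 0.089, limma adjusted p 0.131). None of these 3 genes overlapped between diets, and they passed with array weights and without ND replicate 3. Chosen after their values were seen, *Plin2*, the coat protein of lipid droplets (0.32), *Cd36*, a fatty acid receptor (0.74), and *Itgax*, the integrin CD11c (0.90), were also higher, with limma adjusted p-values of 0.285, 0.217 and 0.270. *Itgax* overlapped between diets, whereas *Plin2* and *Cd36* did not.

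**Figure D4:**
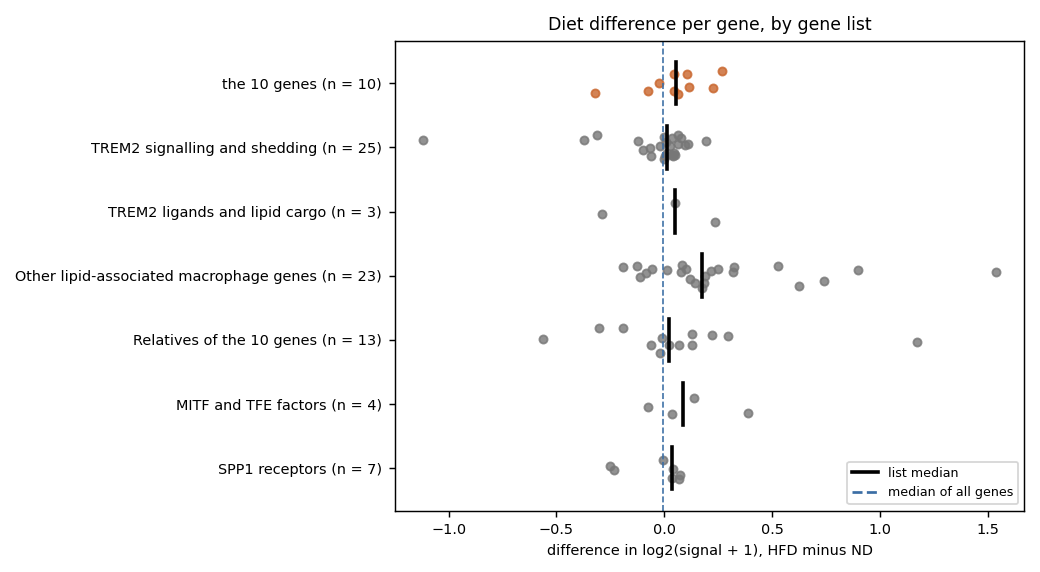
Difference in log2(signal + 1), HFD minus ND (horizontal axis), of each gene in the set of 10 (orange) and in 6 related lists (grey), with the list median as a black bar and the median of all 13232 genes (-0.0034) as a dashed line. The other lipid-associated genes have a median of 0.17 and reach 1.54 at Mmp12, while the 10 genes lie between -0.32 and 0.27.

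The 6 libraries did not weigh equally in these results. ND replicate 1 was the highest of the 6 for 2 members and the lowest for 4, ND replicate 2 the lowest for 2, and ND replicate 3 the highest for 2 and the lowest for 1. HFD replicate 1 was the highest for 1 and the lowest for 3, while HFD replicates 2 and 3 were the highest for 2 and 3 members and the lowest for 0. The array weights, by which limma gives less influence to libraries that deviate more, ranged from 0.441 (ND replicate 3) to 3.09 (HFD replicate 2). ND replicate 1 had 1.91 and every other library 0.891 or less. Values with array weights therefore rest mostly on HFD replicate 2 and ND replicate 1. HFD replicates 2 and 3 were above the gene's mean for 7 of the 10 members each, ND replicate 3 for 5, HFD replicate 1 and ND replicate 2 for 4 and ND replicate 1 for 3.

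The libraries carried the markers of macrophages: all 10 genes of that list were present, with a summed signal of 373226 to 425419 in ND and 370203 to 431316 in HFD. No marker of B cells, T and NK cells or red cells was listed in the table, and of dendritic cell markers 2 of 10 were, both lower in HFD. *Irf4* was at -0.43 without overlap (limma adjusted p 0.353) and passed with array weights (-0.66, limma adjusted p 0.0158). *Batf3* overlapped at -0.047 and turned sign with array weights (0.099). The osteoclast list, given because bone-resorbing cells also express *Spp1* and *Gpnmb*, had 8 of 10 genes present, 6 higher and 2 lower in HFD, with a median log2 difference of 0.47. None passed the adjusted threshold. At an unadjusted p under 0.05 there were 4 higher, beside 5.40% of all genes, and 1 lower, beside 5.18%, and with array weights 5 of the 8 passed, all higher, where 8.56% of all genes passed. Without ND replicate 3 there were 3, all higher, where 1.76% of all genes passed. Chosen after their values were seen, *Dcstamp* and *Ocstamp*, which act in the fusion of osteoclast precursors, were higher by 0.93 and 1.11, both with overlap (limma adjusted p 0.357 and 0.366). *Dcstamp* was at 1.40 and passed when ND replicate 3 was dropped (limma adjusted p 0.00834). *Mmp9*, a matrix protease, was higher by 1.21 without overlap (limma adjusted p 0.270). *Ctsk* overlapped between diets at 0.40, was at 0.71 when ND replicate 3 was dropped and passed with array weights (0.79, limma adjusted p 0.0448). *Acp5* overlapped as well. The 2 lower genes were *Itgb3* (-0.25, without overlap) and *Nfatc1* (-0.15, with overlap, and -0.26 when ND replicate 3 was dropped), and *Calcr* and *Oscar* were not listed. The summed signal of the list was 11101 to 12808 in ND and 14907 to 17537 in HFD. Most of it was *Atp6v0d2*, without which the sums were 3523 to 4248 and 3996 to 4568, with *Nfatc1* the most abundant of the rest. Of the neutrophil list 6 of 10 genes were present, each with a higher mean in HFD, and 5 of the 6 overlapped. *Mmp8*, named after its values were seen, was 443, 463 and 452 in ND and 707, 1032 and 834 in HFD without overlap (0.90, limma adjusted p 0.113), and passed when libraries were weighted (limma adjusted p 0.00443) and when ND replicate 3 was dropped (limma adjusted p 0.0196). The other 5 ran from 0.11 (*Ltf*) to 0.40 (*Lcn2*), from 0.014 (*S100a9*) to 0.38 (*S100a8*) without ND replicate 3, and from 0.40 (*Ltf*) to 0.78 (*S100a8*) with array weights. The list had sums of 1712 to 2455 in ND and 2109 to 3430 in HFD. Of the stroma list 3 of 8 were present, each lower in HFD, with sums of 177 to 549 in ND and 51.8 to 337 in HFD. Mast cell and adipocyte lists had 1 gene each in the table, both lower in HFD without overlap. *Kit* was at -0.88 (limma adjusted p 0.284) and passed with array weights (-1.22, limma adjusted p 0.0106). *Adipor2* was at -0.12 (limma adjusted p 0.602) and did not pass with array weights. The part of these cells in the results was not tested.

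The genes whose pattern over the 6 libraries was nearest to that of *Trem2*, among 10784 other genes with a mean signal of at least 100, were *Tmc6*, *Rex1bd* and *Tmem208*. Likeness was the mean absolute difference between log2 values, each less its gene's mean, and was 0.012, 0.019 and 0.027 for these. All 3 had their highest value in ND replicate 3 and their lowest in ND replicate 1, as *Trem2* did, which follows from how they were chosen. The other members were left out of this ranking.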

How the data were processed

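RNA was measured in 6 hypoxia libraries of bone marrow-derived macrophages (3 ND, 3 HFD) from stranded total RNA libraries read as single ends of 75 bases. The signal deposited by the authors is estimated gene counts over a size factor, as its values show: in each library 57.0% to 58.4% of entries from 5 to 1000 fell within 0.02 read of a whole read. That is too few to recover counts, so no count test was run. STAR, Partek and mm10 are named in the submitters' processing notes; counter, annotation and filters are not given in the sources used here. NC in column names was read as normal diet, and the number after the first hyphen as replicate.

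All 13232 genes were fitted as log2(signal + 1) with limma 3.58.1 in R 4.3.3 (mean-variance trend, two-sided, Benjamini-Hochberg, threshold 0.05). Differences are HFD minus ND on that scale, which understates changes of low genes. A planned minimum mean of 1 removed no gene. Lengths are those of GENCODE M21 principal transcripts (the longest transcript where none is marked), matched by symbol. The fit was tested on simulated data.

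The members, lists and tests were chosen with earlier results of these data known. Named genes were the 10 members, in each pathway list the 3 genes with the smallest p, and the 3 genes nearest to *Trem2*; others were named for their role or after their values were seen. Alternatives were another pseudocount, filters, scalings, no trend, array weights, the replicate block and leaving out each library.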

Additional observations from a re-analysis of the deposited data

How the results depend on the processing

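The count of 0 genes past the adjusted threshold became 1133 with array weights and 31 with the replicate block, and ran from 0 to 233 when 1 library was left out (233 without ND replicate 3, 2 when HFD replicate 1 was dropped, 1 when ND replicate 2 was). The count of 0 members became 2 with array weights and stayed at 0 in the other alternatives run. The members' median log2 difference of 0.055 was 0.0084 after quantile normalization and ran from 0.030 to 0.094 without 1 library. The filters, the fit without the trend and the replicate block leave a difference as it is and bear only on its call. No gene was under the minimum, so the fit with no filter repeats the main one and checks nothing. Among values for members, 2 newly passed, with array weights (*Spp1* and *Lgals3*), and 5 changed sign. These were *Syk* (-0.014) after quantile normalization, *Lgals1* (-0.012 without HFD replicate 3, in a range up to 0.11 without 1 library), and *Cd63* 3 times. *Cd63* gave 0.0087 with array weights, -0.068 to 0.0012 without 1 library (0.0012 without ND replicate 3) and 0.017 when summed with its copy, an alternative chosen after seeing the data. For 21 other named genes, 21 values newly passed the threshold and 2 changed sign, *Anxa5* (-0.0042) after quantile normalization and *Rex1bd* (-0.013 without ND replicate 1, up to 0.23 without ND replicate 3). The cause of these changes was not tested.

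Same-numbered libraries had residual correlations of 0.089, -0.11 and 0.027 across 10794 genes, so the libraries were not taken as pairs. With the replicate block no member passed, and *Mmp12*, *Ctsl* and *Atp6v0d2* did (limma adjusted p 0.0315, 0.0381 and 0.0358, running up to 0.860, 0.829 and 0.760 over the alternatives). At the depth of these libraries counting error is at most 2.02% for any member.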
